A study of Mus musculus with 16 samples.

Results

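The miR-26 family consists of miR-26a and miR-26b. Its members were taken by name from a table of mature miRNA counts: the guide strands mmu-miR-26a-5p and mmu-miR-26b-5p and the opposite arms mmu-miR-26a-2-3p and mmu-miR-26b-3p (mmu stands for mouse). These are 4 of 1978 miRNA names, and 3 of the 4 had enough counts to be tested among 483 tested names. miR-26b-3p did not pass the filter on low counts. A further opposite arm of the family, miR-26a-1-3p, was read too seldom for a test, and its counts are given.

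The libraries came from primary cultures of perinatal mouse forebrain neurons transduced with a lentiviral vector. The vector carried an shRNA with 5 point mutations (shRNA_5bp), the same shRNA with 2 point mutations (shRNA_2bp), the unmutated shRNA, or no hairpin (Empty_Vector), with 4 libraries in each group and 16 in all. An shRNA is a short hairpin transcript that Dicer cuts into a small interfering RNA. The labels used here name no shRNA target or promoter, and they do not say which libraries came from separate cultures or animals, so the 4 replicates of a group may be technical and p values measure only the spread between these libraries.

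The miR-26 genes lie in introns of the Ctdsp genes, which encode small phosphatases of the RNA polymerase II tail that the neuronal gene repressor REST recruits. Drosha and Dicer cut each hairpin into a duplex, and the arm kept by Argonaute, the guide, recognises targets mainly through its seed, bases 2 to 8. In zebrafish neurogenesis miR-26b represses ctdsp2, the transcript of its host family, and in stem cells that differentiate to neurons in culture miR-26 targets the REST transcript. The guides are widely expressed and are not specific to neurons.

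The mature sequences are shown because they decide which reads can be told apart. They are from RefSeq on GRCm38.p6, with the seed in capitals.
miR-26a-5p: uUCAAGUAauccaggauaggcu
miR-26b-5p: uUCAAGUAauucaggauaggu
miR-26a-2-3p: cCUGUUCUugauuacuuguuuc
miR-26b-3p: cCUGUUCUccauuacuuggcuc
miR-26a-1-3p: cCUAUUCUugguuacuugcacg

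Both guides carry the seed UCAAGUA, and among 1679 table names with a RefSeq sequence these 2 were the ones with that seed. Counted from the 5′ end, miR-26a-5p differs from miR-26b-5p by C11U and C21U, and it is 22 bases long against 21. The guides begin with U, and the 3 opposite arms begin with C. The opposite arms of miR-26a-2 and miR-26b share a seed and are identical at 18 of 22 positions. Those of miR-26a-1 and miR-26a-2 are identical at 16 of 22 positions and differ in the seed by A4G.

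The hairpins are given to show the 2 sources of miR-26a-5p, with the 5p and 3p arms in capitals.
Mir26a-1: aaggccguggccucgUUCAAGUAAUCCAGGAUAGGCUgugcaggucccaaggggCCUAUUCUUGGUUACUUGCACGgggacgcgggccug
Mir26a-2: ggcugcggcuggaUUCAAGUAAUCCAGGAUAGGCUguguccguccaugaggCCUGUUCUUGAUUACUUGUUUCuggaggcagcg
Mir26b: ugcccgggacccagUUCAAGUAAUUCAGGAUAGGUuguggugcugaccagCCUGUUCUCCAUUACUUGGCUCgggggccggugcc

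Mir26a-1 (chr9:119031796-119031885, plus strand) lies in intron 5 of a coding transcript of Ctdspl with 8 exons (GENCODE M21, GRCm38), and in an intron of the other coding transcript too. Mir26a-2 (chr10:126995530-126995613, plus strand) lies in intron 5 of a coding transcript of Ctdsp2 with 8 exons, and an exon of the other coding transcript overlaps the hairpin by 1 base. Mir26b (chr1:74394310-74394394, plus strand) lies in intron 4 of a coding transcript of Ctdsp1 with 7 exons, and outside the other coding transcript. Host and hairpin are on the same strand at all 3 loci. Reads of miR-26a-5p cannot be assigned to Mir26a-1 or Mir26a-2, because both give the same mature sequence, whereas the opposite arms are specific to a locus.

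Library totals were 0.832 to 2.5 M counts with shRNA_5bp, 1.18 to 2.1 M with shRNA_2bp, 5.3 to 8.06 M with shRNA and 2.76 to 11.1 M with Empty_Vector, so both mutated groups were shallower than the others. Levels are given as CPM, the counts per M counts of a library whose total was scaled by TMM, edgeR's trimmed mean of log ratios. Reads of different miRNAs also depend on how well each one is ligated, which was not measured here. All 6 neuronal marker miRNAs were tested, and their summed unscaled level was 343300 to 374400 CPM with shRNA_5bp, 349200 to 361000 with shRNA_2bp, 404600 to 421800 with shRNA and 456000 to 472800 with Empty_Vector. Most of that sum is miR-128-3p. The other 5 were split off after the values were seen. They summed to 93440 to 103600 CPM with shRNA_5bp and 108200 to 112100 with shRNA_2bp. Their sum was 77930 to 90140 CPM with shRNA and 75380 to 76680 with Empty_Vector. This unscaled sum was higher in every hairpin library than in every Empty_Vector library. It is a share of the full total, of which miR-128-3p held less in every hairpin library than in every Empty_Vector library. All marker sums given here are unscaled, and whether this separation holds with TMM was not tested. The 4 microglia and leukocyte markers summed to at most 3.4 CPM in any library, with 2 or 3 of the 4 at 0 throughout a group, and the 2 erythroid markers to at most 2.55 CPM. Of the 3 oligodendrocyte markers, 1 was tested, and their sum was 1.2 to 12.3 CPM with shRNA_5bp, 9.95 to 14.4 with shRNA_2bp, 7.94 to 13 with shRNA and 4.31 to 7.97 with Empty_Vector.

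In the main fit, with TMM, the filter on low counts and all 16 libraries, miR-26a-5p did not pass in any of the 6 comparisons. It is the more abundant guide, and the less abundant miR-26b-5p rose with every hairpin. miR-26b-5p was 1.24-fold higher with shRNA_5bp, 1.34-fold higher with shRNA_2bp and 1.31-fold higher with shRNA than with Empty_Vector. The scarce miR-26a-2-3p rose with shRNA_2bp, by 1.62-fold, in a call that several alternatives did not keep. The comparisons with Empty_Vector share the same 4 control libraries and are therefore not independent of each other.

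miR-26a-5p was the 7th to 9th most counted miRNA in every library. It held 2.5, 2.6, 2.5 and 2.62% of counts in the 4 shRNA_5bp libraries and 2.5, 2.52, 2.45 and 2.42% in the shRNA_2bp libraries. It held 2.42, 2.44, 2.32 and 2.38% in the shRNA libraries and 2.26, 2, 2.05 and 2.04% in the Empty_Vector libraries. As a share of the library, every hairpin library was above every Empty_Vector library. How many of all tested miRNAs separate in this unscaled share was not counted. Scaled by library size alone, the median log2 fold change of all tested miRNAs was 0.30 with shRNA_5bp, 0.19 with shRNA_2bp and 0.18 with shRNA. The family as a whole, with all 5 names, made up 2.61 ± 0.0696% of counts with shRNA_5bp, 2.53 ± 0.0434% with shRNA_2bp, 2.45 ± 0.0514% with shRNA and 2.13 ± 0.114% with Empty_Vector (SD, n = 4 each).

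That difference in share did not persist on the scaled level. mmu-miR-26a-5p had 24020, 24080, 23890 and 23320 CPM with shRNA_5bp and 24480, 23880, 24480 and 23300 CPM with shRNA_2bp. It had 25020, 24610, 23350 and 22630 CPM with shRNA and 24890, 22630, 22560 and 22000 CPM with Empty_Vector. The groups overlapped in all 6 comparisons, and Empty_Vector library 1 was above all but 1 of the hairpin libraries.

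The log2 fold change of miR-26a-5p against Empty_Vector was 0.050 ± 0.050 with shRNA_5bp (SE, n = 4 per group, adjusted p = 0.403, edgeR), 0.062 ± 0.050 with shRNA_2bp (adjusted p = 0.276) and 0.054 ± 0.050 with shRNA (adjusted p = 0.445). The 95% intervals reached from 0.964 to 1.11-fold with shRNA_5bp, from 0.972 to 1.12-fold with shRNA_2bp and from 0.967 to 1.12-fold with shRNA. In these comparisons 58.2% of the 483 tested miRNAs passed the test with shRNA_5bp (31.5% higher, 26.7% lower), 65.6% with shRNA_2bp (33.3% higher, 32.3% lower) and 34.8% with shRNA (19.7% higher, 15.1% lower). A larger change in either direction was seen in 95.5% of tested miRNAs with shRNA_5bp, in 94.2% with shRNA_2bp and in 87% with shRNA. The neuronal miR-128-3p, the most abundant miRNA, held 24 to 28.1% of counts with shRNA_5bp, 23.9 to 25.3% with shRNA_2bp, 31.6 to 34.1% with shRNA and 38.1 to 39.7% with Empty_Vector. Of the counts left without miR-128-3p, miR-26a-5p held 3.45 ± 0.014% with shRNA_5bp, 3.28 ± 0.0521% with shRNA_2bp, 3.57 ± 0.0892% with shRNA and 3.41 ± 0.158% with Empty_Vector (SD, n = 4 each).

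**Figure D1:**
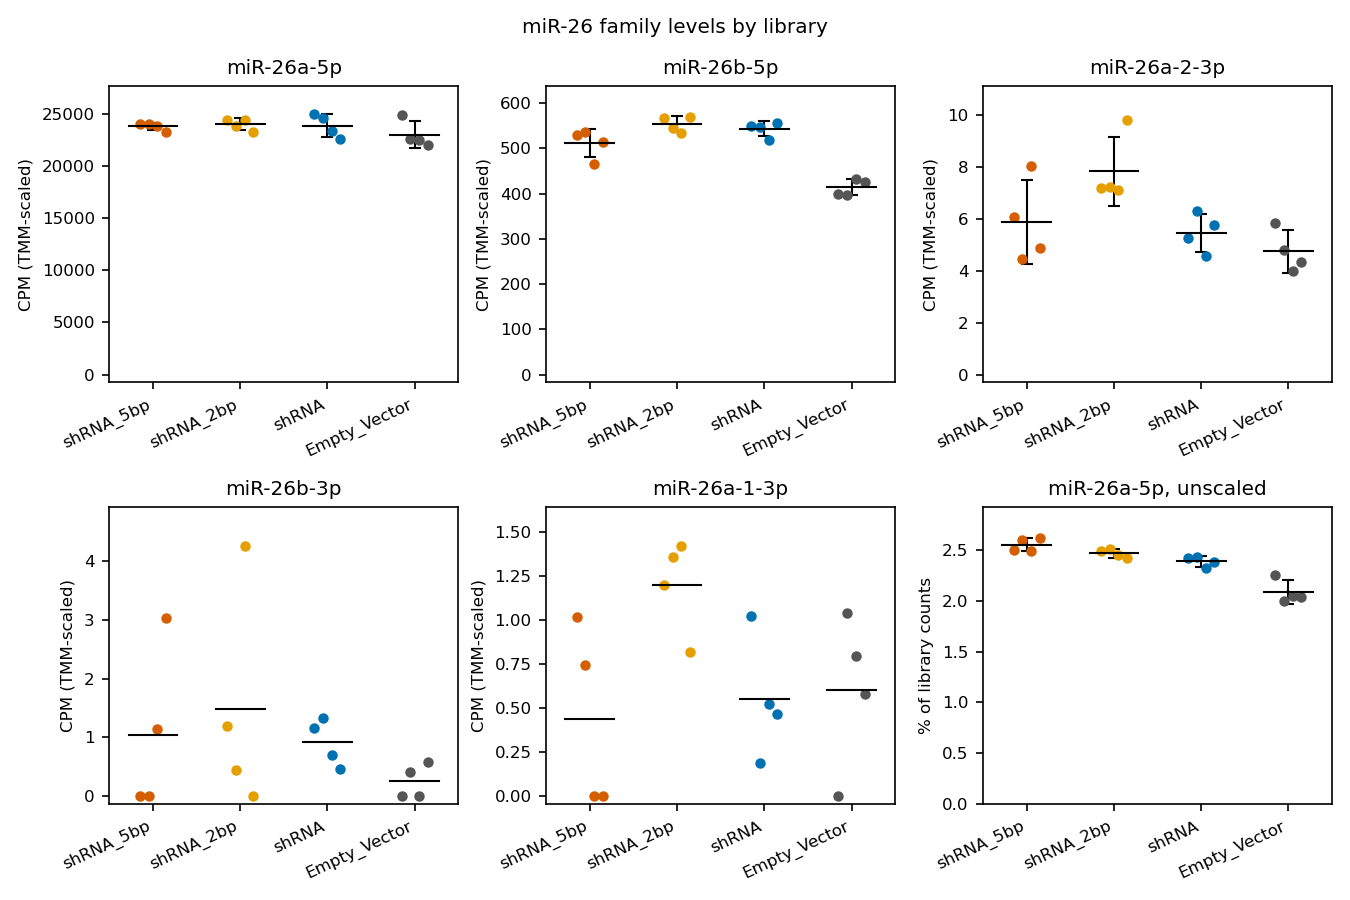
TMM-scaled CPM of each miR-26 name by library (points, 4 per group), with the group mean (line) and SD (bars, left out for the 2 arms read at most 10 times per library); the last panel gives miR-26a-5p as a percent of library counts. miR-26b-5p lies at 466 to 569.5 CPM in the hairpin libraries and at 397.8 to 432.7 CPM with Empty_Vector, whereas miR-26a-5p overlaps between groups once scaled.

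miR-26b-5p, the guide of the Ctdsp1 intron, ranked 78th to 109th by count. mmu-miR-26b-5p had 529.1, 536.1, 466 and 514.9 CPM with shRNA_5bp and 567, 545.5, 533.6 and 569.5 CPM with shRNA_2bp. It had 549.7, 548.1, 518.8 and 556.8 CPM with shRNA and 400, 397.8, 432.7 and 425.4 CPM with Empty_Vector. All 12 hairpin libraries were above all 4 Empty_Vector libraries, and shRNA_5bp library 3 was the lowest of the 12.

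Against Empty_Vector, miR-26b-5p rose by 0.31 ± 0.063 on the log2 scale with shRNA_5bp (SE, n = 4 per group, adjusted p = 0.000111, edgeR). It rose by 0.42 ± 0.062 with shRNA_2bp (adjusted p = 1e-06) and by 0.39 ± 0.061 with shRNA (adjusted p = 7.11e-06). The 95% intervals were 1.13 to 1.36-fold, 1.23 to 1.46-fold and 1.21 to 1.43-fold for these 3 hairpins in that order. Complete separation of the groups in CPM was met by 50.3% of tested miRNAs with shRNA_5bp, by 59.2% with shRNA_2bp and by 32.9% with shRNA, so separation was common among tested miRNAs. A larger change was seen in 66.7% of tested miRNAs with shRNA_5bp, in 63.8% with shRNA_2bp and in 30.9% with shRNA. With shRNA_5bp the log2 fold change was 0.076 and did not pass (adjusted p = 0.631) when 1367 names were kept without the filter on low counts, and the rise was 0.19 (adjusted p = 0.0298) without Empty_Vector library 2.

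Summed unscaled levels of markers that lean to other cells differed between some groups, with no test of the sums. The list called astroglia-leaning holds miR-21a-5p, miR-143-3p, miR-449a-5p and miR-193a-3p, and whether its sum follows astroglia was not tested. These 4 summed to 960.3 to 1221 CPM with shRNA_5bp and 1729 to 2168 with shRNA_2bp. They summed to 873.8 to 1039 CPM with shRNA and 651.2 to 770.5 with Empty_Vector. The 4 vascular and fibroblast miRNAs summed to 1188 to 1230 CPM with shRNA_5bp, 1112 to 1243 with shRNA_2bp, 612.4 to 748.3 with shRNA and 608.5 to 719.4 with Empty_Vector. The unscaled astroglia-leaning sum was above that of Empty_Vector in every hairpin library. The unscaled vascular and fibroblast sum was above that of Empty_Vector in every library of both mutated hairpins, while with shRNA it overlapped Empty_Vector. With library size alone, the median log2 fold change of the 483 tested miRNAs was also above 0. It was 0.30 with shRNA_5bp, 0.19 with shRNA_2bp and 0.18 with shRNA. Whether the sums separate with TMM was not tested. In each of these lists 2 names were tested. The part of other cells, of depth and of miR-128-3p in the rise of miR-26b-5p was not tested, and a change in the share of cells cannot be told apart from a change in RNA per cell in these bulk libraries.

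The guides could be set against each other within a library, where scaling has no influence. With 0.5 added to each count, miR-26a-5p was counted 45.4, 44.9, 51.2 and 45.3 times as often as miR-26b-5p in the shRNA_5bp libraries. In the shRNA_2bp libraries it was counted 43.2, 43.8, 45.8 and 40.9 times as often. It was counted 45.5, 44.9, 45 and 40.6 times as often in the shRNA libraries and 62.2, 56.9, 52.1 and 51.7 times in the Empty_Vector libraries. How many mismatches the counting allowed is not given in the sources used here, and the guides differ at 2 of the 21 positions they share, so whether some misread miR-26a-5p was counted as miR-26b-5p, or the reverse, was not tested. Such reads would weigh more on the level of miR-26b-5p, the scarcer guide, and on the ratio. Every hairpin library had a lower ratio than every Empty_Vector library, with the shRNA_5bp library 3 (51.2) nearest to the lowest Empty_Vector library (51.7).

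The mean log2 ratio differed from that of Empty_Vector by -0.25 with shRNA_5bp, by -0.36 with shRNA_2bp and by -0.34 with shRNA. Each difference had an exact two-sided permutation p of 0.0286, the smallest that 4 against 4 libraries allow. None passed after adjustment over 18 ratio tests (3 ratios in 6 comparisons; adjusted p = 0.103). After this adjustment the smallest p can pass only when most of the 18 tests reach it, so not passing says little about the ratio. Between hairpins the ratio differed by 0.10 for shRNA_5bp against shRNA_2bp (exact permutation p = 0.114), by 0.085 for shRNA_5bp against shRNA (exact permutation p = 0.257) and by -0.019 for shRNA_2bp against shRNA (exact permutation p = 0.657).

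**Figure D2:**
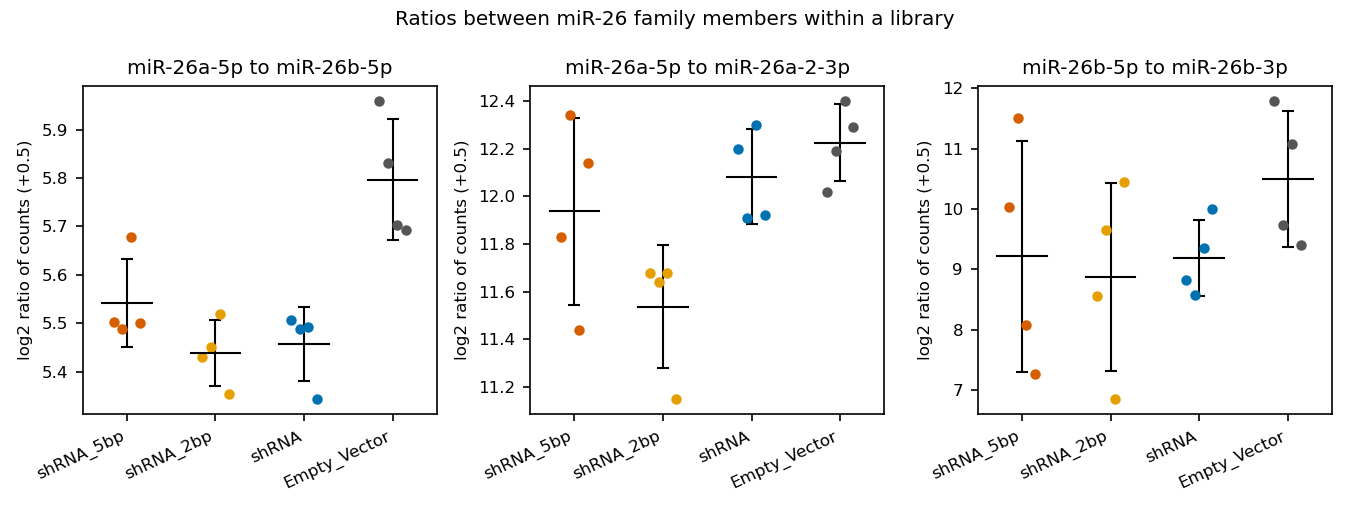
Log2 ratio of counts within each library (points, 4 per group; line, mean; bars, SD; 0.5 added to each count) for the 2 guides and for each guide over its opposite arm. The ratio of miR-26a-5p to miR-26b-5p is 5.34 to 5.68 in the hairpin libraries and 5.69 to 5.96 with Empty_Vector.

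Library scaling moved both guides together with the bulk of miRNAs. With library size alone, miR-26a-5p passed with every hairpin, at 0.29 (adjusted p = 3.14e-06) with shRNA_5bp, 0.24 (adjusted p = 3.72e-05) with shRNA_2bp and 0.20 (adjusted p = 0.00105) with shRNA. The median of the 483 tested miRNAs then stood at 0.30 with shRNA_5bp, 0.19 with shRNA_2bp and 0.18 with shRNA, against 0.057, 0.015 and 0.037 with TMM. Calls split into 216 higher and 81 lower with shRNA_5bp, 206 and 127 with shRNA_2bp, and 149 and 44 with shRNA, against 152 and 129, 161 and 156, and 95 and 73 with TMM. Without the filter on low counts, the median of these 483 stood at -0.18 with shRNA_5bp and -0.11 with shRNA_2bp, calls were 118 higher and 191 lower with shRNA_5bp and 123 and 199 with shRNA_2bp, and miR-26a-5p stood at -0.18 with shRNA_5bp (adjusted p = 0.00827). Relative to the median of the 483, miR-26a-5p lay at -0.011 to -0.0012 with shRNA_5bp, at 0.047 to 0.066 with shRNA_2bp and at 0.014 to 0.022 with shRNA under all 6 settings compared. miR-26b-5p lay 0.25 above the median with shRNA_5bp, 0.41 to 0.42 above it with shRNA_2bp and 0.35 to 0.36 above it with shRNA under the same settings, which were edgeR with 4 scalings, edgeR without the filter, and DESeq2. Rescaling a library shifts the log2 values of its miRNAs nearly alike, and the median shifts with them. These distances therefore had to stay nearly the same between settings, and their agreement is not separate support for the rise.

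**Figure D3:**
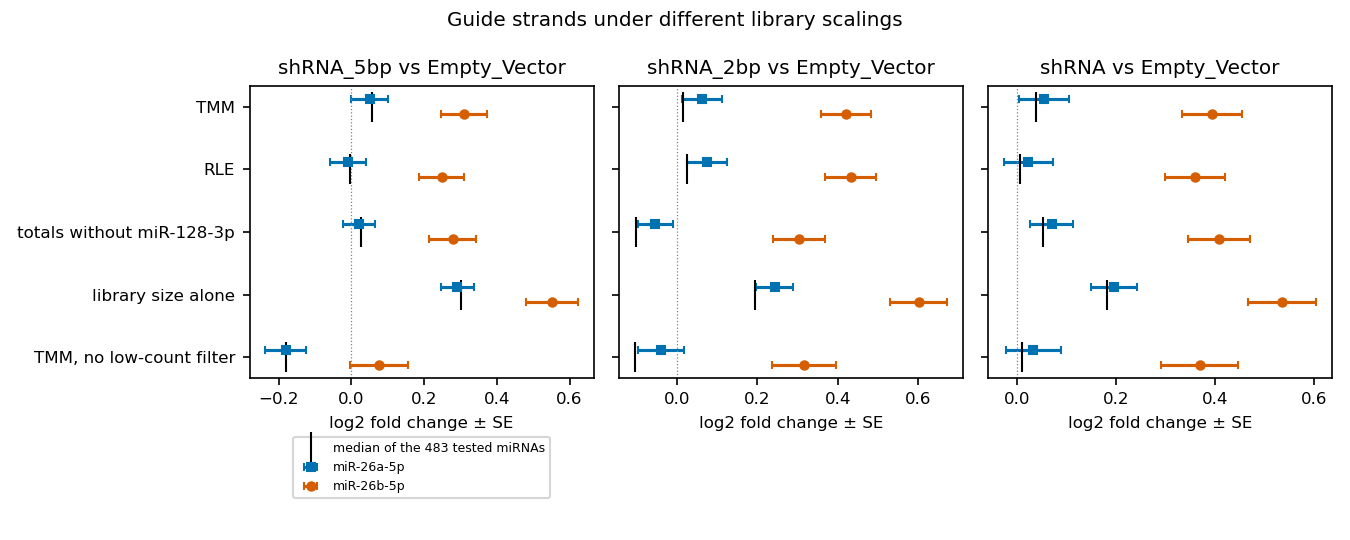
Log2 fold change against Empty_Vector (± SE) of miR-26a-5p (squares) and miR-26b-5p (circles) under 4 library scalings and without the filter on low counts, with the median of the 483 tested miRNAs as a bar. Relative to the median, miR-26a-5p lies at -0.011 to 0.066 and miR-26b-5p at 0.25 to 0.42, distances that rescaling a library leaves nearly unchanged.

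Between hairpins neither guide passed the test in the main fit, with TMM, the filter on low counts and all 16 libraries. For shRNA_5bp against shRNA_2bp, the median of the 483 tested miRNAs itself stood at 0.16 in that fit. Relative to the median under each setting above, miR-26a-5p then lay at -0.175 to -0.169 and miR-26b-5p at -0.273 to -0.265. For shRNA_5bp against shRNA, miR-26a-5p lay at -0.0052 to 0.0042 and miR-26b-5p at -0.085 to -0.073. For shRNA_2bp against shRNA, they lay at 0.0099 to 0.015 and 0.029 to 0.034. These distances were not tested. miR-26b-5p differed by -0.11 ± 0.064 for shRNA_5bp against shRNA_2bp (SE, adjusted p = 0.138, edgeR), by -0.084 ± 0.062 for shRNA_5bp against shRNA (adjusted p = 0.266) and by 0.027 ± 0.062 for shRNA_2bp against shRNA (adjusted p = 0.724). The 95% intervals were 0.846 to 1.01-fold, 0.864 to 1.03-fold and 0.934 to 1.11-fold in that order. In these comparisons, taken in the same order, 59.6%, 53% and 64.6% of tested miRNAs passed, and the groups did not overlap in CPM for 53%, 48.7% and 58.4%. For shRNA_5bp against shRNA_2bp, miR-26b-5p passed with RLE scaling (-0.18, adjusted p = 0.0157), in DESeq2 (-0.17, adjusted p = 0.0147), without the filter (-0.24, adjusted p = 0.0179) and when only these 2 groups were fitted (-0.27, adjusted p = 0.00141). For shRNA_5bp against shRNA it passed without the filter (-0.29, adjusted p = 0.00177). It also passed when any of Empty_Vector library 2 or 3, shRNA library 1, 2 or 3, or shRNA_5bp library 4 was left out, at -0.24 to -0.25 against shRNA_2bp and -0.23 to -0.26 against shRNA.

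miR-26a-5p differed by -0.012 ± 0.050 for shRNA_5bp against shRNA_2bp (SE, adjusted p = 0.842, edgeR), by -0.0043 ± 0.050 for shRNA_5bp against shRNA (adjusted p = 0.957) and by 0.0082 ± 0.050 for shRNA_2bp against shRNA (adjusted p = 0.906). The 95% intervals were 0.923 to 1.07-fold, 0.928 to 1.07-fold and 0.937 to 1.08-fold in that order. Its share of counts without miR-128-3p was lower with shRNA_2bp than with shRNA (-0.12 on the log2 scale, adjusted p = 0.0167 with those totals as the scale), and it differed by -0.17 (adjusted p = 0.0031) between shRNA_5bp and shRNA_2bp when only these 2 groups were fitted. Without any 1 of those same 6 libraries, it was lower in shRNA_5bp, at -0.14 against shRNA_2bp and -0.13 to -0.17 against shRNA. For shRNA_5bp against shRNA it was also lower without the filter (-0.21, adjusted p = 0.00124).

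**Figure D4:**
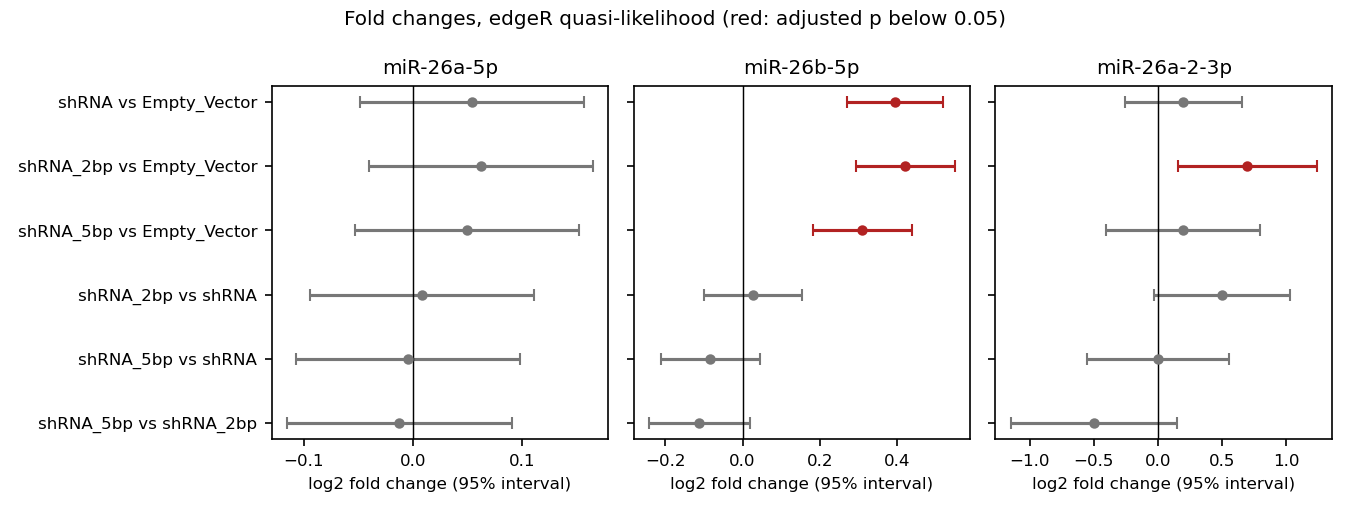
Log2 fold change with its 95% interval for the 3 tested members in the 6 comparisons, the first-named group over the second; red marks an adjusted p below 0.05 (edgeR), and each panel has its own scale. Red intervals are those of miR-26b-5p against Empty_Vector (0.31 to 0.42) and of miR-26a-2-3p for shRNA_2bp against Empty_Vector (0.70).

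Of the opposite arms, which are mostly degraded after the duplex is unwound, miR-26a-2-3p was the most counted, with 6 to 46 counts per library. mmu-miR-26a-2-3p had 6.09, 4.46, 8.05 and 4.86 CPM with shRNA_5bp and 7.18, 7.24, 7.1 and 9.82 CPM with shRNA_2bp. It had 5.25, 6.29, 4.56 and 5.77 CPM with shRNA and 5.86, 4.78, 3.99 and 4.35 CPM with Empty_Vector. The shRNA_2bp libraries were above all shRNA and Empty_Vector libraries, and shRNA_5bp overlapped every other group. Such separation was common, as 59.2% of tested miRNAs did not overlap between shRNA_2bp and Empty_Vector and 58.4% between shRNA_2bp and shRNA. The count of miR-26a-2-3p per library was 10 to 16 with shRNA_2bp and 10 to 46 with Empty_Vector, and the total depth of shRNA_2bp was lower.

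miR-26a-2-3p rose by 0.70 ± 0.265 with shRNA_2bp against Empty_Vector (SE, n = 4 per group, adjusted p = 0.0239, edgeR; 1.11 to 2.36-fold). Of all tested miRNAs, 65.6% passed in this comparison. The call of miR-26a-2-3p was lost in DESeq2 (adjusted p = 0.0539), with library totals without miR-128-3p (0.58, adjusted p = 0.0578) and without the filter (0.59, adjusted p = 0.23). It was also lost without Empty_Vector library 4 (0.58, adjusted p = 0.0935), shRNA_2bp library 3 (0.66, adjusted p = 0.0513) or shRNA_2bp library 4 (0.52, adjusted p = 0.131). The log2 fold change was 0.19 ± 0.293 with shRNA_5bp (adjusted p = 0.608) and 0.20 ± 0.223 with shRNA (adjusted p = 0.544) against Empty_Vector. It was -0.50 ± 0.316 for shRNA_5bp against shRNA_2bp (adjusted p = 0.18), 0.50 ± 0.259 for shRNA_2bp against shRNA (adjusted p = 0.0938) and -0.0021 ± 0.27 for shRNA_5bp against shRNA (adjusted p = 0.997). Intervals for this arm are wide: those of shRNA_5bp and shRNA against Empty_Vector covered 0.755 to 1.73-fold and 0.835 to 1.57-fold.

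With 0.5 added to each count, miR-26a-5p was counted 2278 to 5388 times as often as miR-26a-2-3p in a library. Because 2 loci feed the guide and 1 the arm, this does not compare the arms of a single locus. The log2 ratio of the guide to this arm averaged 11.9 ± 0.395 with shRNA_5bp, 11.5 ± 0.257 with shRNA_2bp, 12.1 ± 0.196 with shRNA and 12.2 ± 0.157 with Empty_Vector (SD, n = 4 each). It was lower with shRNA_2bp than with Empty_Vector (-0.69) and than with shRNA (-0.54) in every library, each at the smallest exact permutation p of 0.0286 and with an adjusted p of 0.103. The other 4 comparisons of this ratio had exact permutation p values of 0.2 to 0.514.

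miR-26a-1-3p, from the Ctdspl intron, had 1, 2, 0 and 0 counts with shRNA_5bp, 2, 3, 2 and 1 with shRNA_2bp, 8, 1, 3 and 3 with shRNA and 0, 10, 2 and 6 with Empty_Vector. Over all libraries the opposite arms of miR-26a held 347 counts of miR-26a-2-3p and 44 of miR-26a-1-3p. The miR-26a-2 arm made up 91.7% of these with shRNA_5bp (exact 95% binomial interval 77.5 to 98.3%), 86.2% with shRNA_2bp (74.6 to 93.9%), 90.1% with shRNA (84.3 to 94.4%) and 87.6% with Empty_Vector (81.1 to 92.5%). These intervals overlap and cover counting error only. They describe the arms that were read and not the share of the guide made by each locus.

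mmu-miR-26b-3p had 0, 0, 1 and 5 counts with shRNA_5bp, 2, 1, 6 and 0 with shRNA_2bp, 9, 7, 4 and 3 with shRNA and 0, 4, 0 and 6 with Empty_Vector. Summed over libraries and without scaling, its level was 1.05 CPM with shRNA_5bp (exact 95% Poisson interval 0.384 to 2.28), 1.42 CPM with shRNA_2bp (0.651 to 2.7), 0.913 CPM with shRNA (0.579 to 1.37) and 0.337 CPM with Empty_Vector (0.162 to 0.62). A count of 0 allows up to 3 counts, which is 0.269 to 3.61 CPM depending on the library. The log2 ratio of miR-26b-5p to miR-26b-3p overlapped between groups in all 6 comparisons (exact permutation p = 0.114 to 0.971) with 0.5 added to each count. With 5 added, it differed by -1.41 for shRNA_2bp against Empty_Vector and by -1.34 for shRNA_2bp against shRNA, each at the smallest exact permutation p of 0.0286 (adjusted p = 0.0735). At 0 to 9 counts per library the added count sets much of this ratio, and its weight depends on depth. The pooled intervals of shRNA_2bp and Empty_Vector do not overlap, but they leave out the spread between libraries, where shRNA_2bp had 0 to 6 counts and Empty_Vector 0 to 6. The order of levels in every group was miR-26a-5p, miR-26b-5p and miR-26a-2-3p, while the ranges of miR-26b-3p and miR-26a-1-3p overlapped.

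The spread of the guides between libraries was small. The coefficient of variation of miR-26a-5p CPM was 1.46% with shRNA_5bp, 2.35% with shRNA_2bp, 4.63% with shRNA and 5.54% with Empty_Vector, where counting error alone gives 0.562, 0.515, 0.26 and 0.286%. That of miR-26b-5p was 6.18, 3.12, 3.09 and 4.27% in the same order of groups, with 3.85, 3.39, 1.73 and 2.13% from counting error. For miR-26a-2-3p the spread was 27.6, 16.9, 13.5 and 17.1%, below the 35.7, 28.6, 17.3 and 20.2% that counting error alone gives.

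The profiles most like the guides over the 16 libraries were looked up among 358 other tested miRNAs of at least 10 CPM, as a description that shares scaling and depth. Group means were not removed, so r also holds the differences between groups and not only variation between libraries of a group. Closest to miR-26b-5p were miR-181a-5p (Pearson r = 0.85), miR-672-5p (r = 0.84), miR-30c-5p (r = 0.83), miR-30a-5p (r = 0.81) and miR-30b-5p (r = 0.80). Closest to miR-26a-5p were miR-30a-3p, miR-672-5p and miR-181a-5p (r = 0.59 each), miR-28a-3p (r = 0.58) and let-7c-5p (r = 0.57). The guides themselves had r = 0.38 with each other, below these values. miR-181a-5p averaged 14290 CPM with shRNA_5bp, 15380 with shRNA_2bp, 12240 with shRNA and 7292 with Empty_Vector, and thus a larger rise than that of miR-26b-5p.

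The intronic setting was described through 30 guides of miRNAs inside introns of protein-coding genes, of which 28 were tested. With shRNA_5bp 11 rose and 5 fell (median log2 0.28, against 0.057 over all tested miRNAs), with shRNA_2bp 12 rose and 10 fell (median 0.27, against 0.015), and with shRNA 6 rose and 4 fell (median 0.12, against 0.037). These are 57.1% of the 28 with shRNA_5bp, 78.6% with shRNA_2bp and 35.7% with shRNA, beside 58.2%, 65.6% and 34.8% of all tested miRNAs, so the shares with shRNA_5bp and shRNA were near those of all miRNAs. With library size alone these counts were 16 and 3, 16 and 8, and 13 and 1, with RLE scaling 10 and 8, 12 and 9, and 6 and 6, and without the filter 6 and 9, 7 and 11, and 4 and 4. Over all 483 tested miRNAs, higher and lower calls were 216 and 81, 206 and 127, and 149 and 44 with library size alone. They were 137 and 139, 164 and 151, and 81 and 83 with RLE scaling. Without the filter they were 118 and 191, 123 and 199, and 71 and 74 of 1367 names. The most abundant of the intronic guides, miR-128-3p, fell with shRNA_5bp by 0.81 (SE 0.065), with shRNA_2bp by 0.83 (SE 0.065) and with shRNA by 0.37 (SE 0.065). let-7g-5p rose with shRNA_5bp (0.23 ± 0.05) and shRNA_2bp (0.40 ± 0.05) and stood at 0.11 with shRNA (adjusted p = 0.0976). miR-218-5p fell with shRNA_5bp by 0.50 (SE 0.081, adjusted p = 1.57e-05), with shRNA_2bp by 0.20 (SE 0.08, adjusted p = 0.0335) and with shRNA by 0.21 (SE 0.08, adjusted p = 0.05). miR-151-3p fell with shRNA by 0.20 (SE 0.059) and stood at -0.11 with shRNA_5bp (adjusted p = 0.104) and -0.09 with shRNA_2bp (adjusted p = 0.178).

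The 13 miRNAs of the REST network, most of them from genes that REST is known to repress, were all tested. miR-139-5p and miR-153-3p are also among the intronic guides. The list holds both arms of miR-9, miR-124, miR-132 and miR-212, so its names are not separate genes and its counts are not of independent members. With shRNA_5bp 6 rose and 2 fell (median log2 0.12), with shRNA_2bp 5 rose and 5 fell (median 0.20) and with shRNA 8 rose and 0 fell (median 0.44), against medians of 0.057, 0.015 and 0.037 over all tested miRNAs. These are 61.5%, 76.9% and 61.5% of the 13, beside 58.2% of all tested miRNAs with shRNA_5bp (31.5% higher, 26.7% lower), 65.6% with shRNA_2bp (33.3% and 32.3%) and 34.8% with shRNA (19.7% and 15.1%). With library size alone these counts were 9 and 0, 7 and 3, and 10 and 0, and without the filter 4 and 4, 4 and 5, and 7 and 0. With shRNA, 1 member fell with RLE scaling (7 rose), in DESeq2 (7 rose) and with a replicate block (8 rose). Calls over all tested miRNAs with library size alone, with RLE and without the filter are given with the intronic guides above. For shRNA they were 81 higher and 87 lower in DESeq2, and 106 and 79 with a replicate block. The neurogenic miR-9-5p rose with shRNA_5bp (0.20 ± 0.047) and shRNA_2bp (0.42 ± 0.047) and stood at -0.01 with shRNA (adjusted p = 0.917). Its opposite arm miR-9-3p rose with shRNA_2bp (0.78 ± 0.055) and stood at 0.03 with shRNA_5bp (adjusted p = 0.634) and with shRNA (adjusted p = 0.745). miR-124-3p, which targets the host family member Ctdsp1 in the chick spinal cord, rose with shRNA_2bp (0.33 ± 0.07) and shRNA (0.44 ± 0.07) and stood at 0.12 with shRNA_5bp (adjusted p = 0.152). miR-139-5p fell with shRNA_5bp by 0.26 (SE 0.06) and with shRNA_2bp by 0.78 (SE 0.061) and stood at -0.14 with shRNA (adjusted p = 0.0802).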

How the data were processed

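The deposited table holds raw counts per mature miRNA name, 1978 names in 16 libraries. Per the labels' protocols, adapters were ligated to 100 ng of RNA, followed by 15 cycles of PCR and a size selection. The submitters' processing notes name bcl2fastq 2.20.0.422, Trim Galore 0.6.0, cutadapt 1.15, Bowtie 1.1.1, edgeR and GRCm38.p6 without a role; the counting step and mismatches allowed are not given in the sources used here. Without molecular identifiers, intervals of counts cover counting error only.

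All libraries were fitted together by group in edgeR 4.0.16 (R 4.3.3; TMM scaling, its filter on low counts, robust quasi-likelihood F test), with p values adjusted by Benjamini and Hochberg over 483 miRNAs, a threshold of 0.05 and standard errors from the fold change and F. Ratios used 0.5 added per count and exact permutation. Alternatives were RLE, library size, totals without miR-128-3p, no filter, DESeq2 1.42.0, a replicate block, pairs of groups and leaving out each library.

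Members, the REST network and intronic lists, and markers were chosen with earlier results of these data known. Named were the members, the 4 most abundant tested names per list and the 5 closest profiles per guide. Same-numbered libraries were checked for pairing by correlating their deviations from group means over 360 miRNAs. All 4 correlations exceeded 0.1 for shRNA against Empty_Vector (0.111 to 0.281) and shRNA_2bp against shRNA (0.166 to 0.198), but not in the other 4 comparisons (lowest -0.0613 to 0.0945).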

Additional observations from a re-analysis of the deposited data

Results flagged for a closer look

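In 32 checks of a group of 4 libraries, 4 had 1 library far from the other 3, and chance flags about 1 in 20. The miR-26a-2-3p level of shRNA_2bp library 4 was 9.82 CPM, from 12 counts, against 7.1 to 7.24 CPM in the other libraries of that group. The log2 ratio of miR-26a-5p to miR-26a-2-3p in the same library was 11.15, against 11.64 to 11.68. The log2 ratio of miR-26a-5p to miR-26b-5p was 5.68 in shRNA_5bp library 3, against 5.49 to 5.5 in the other shRNA_5bp libraries, and that library had the lowest total of all, 0.832 M counts. The same ratio was 5.34 in shRNA library 4, against 5.49 to 5.51 in the other shRNA libraries.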

How the results depend on the processing

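The rise of miR-26b-5p with shRNA_2bp and shRNA passed under every alternative run, and with shRNA_5bp under all but the fit without the filter (0.076). With library size alone, miR-26a-5p against Empty_Vector passed at 0.29 (shRNA_5bp), 0.24 (shRNA_2bp) and 0.20 (shRNA), and against shRNA the values for shRNA_5bp turned to 0.096 (miR-26a-5p), 0.017 (miR-26b-5p) and 0.10 (miR-26a-2-3p); miR-26a-5p turned to 0.048 for shRNA_5bp against shRNA_2bp. With totals without miR-128-3p, miR-26a-5p turned to -0.053 (shRNA_2bp against Empty_Vector), -0.12 (shRNA_2bp against shRNA) and 0.073 (shRNA_5bp against shRNA_2bp), miR-26b-5p to -0.10 (shRNA_2bp against shRNA), and miR-26a-2-3p was 0.58 and not called (shRNA_2bp against Empty_Vector). Without the filter, miR-26a-5p turned to -0.18 and miR-26a-2-3p to -0.032 (shRNA_5bp against Empty_Vector), miR-26a-5p to -0.039 (shRNA_2bp against Empty_Vector), and miR-26a-5p to -0.072 and miR-26b-5p to -0.052 (shRNA_2bp against shRNA); miR-26a-2-3p was 0.59 and not called (shRNA_2bp against Empty_Vector); miR-26a-5p (-0.21) and miR-26b-5p (-0.29) passed for shRNA_5bp against shRNA, and miR-26b-5p (-0.24) against shRNA_2bp. With RLE, miR-26a-5p was -0.0083 (shRNA_5bp against Empty_Vector) and miR-26b-5p passed at -0.18 (shRNA_5bp against shRNA_2bp). DESeq2 gave -0.012 and -0.17 (called) for the same results and 0.70, not called, for miR-26a-2-3p (shRNA_2bp against Empty_Vector). With only the 2 groups fitted, miR-26a-5p was -0.033 (shRNA_5bp against Empty_Vector), 0.0033 (shRNA_5bp against shRNA) and -0.17, called (shRNA_5bp against shRNA_2bp), miR-26b-5p -0.27, called (shRNA_5bp against shRNA_2bp), and miR-26a-2-3p 0.0095 (shRNA_5bp against shRNA). A pseudocount of 5 turned the log2 ratio of miR-26b-5p to miR-26b-3p to -1.48 (shRNA_5bp against shRNA) and -0.14 (shRNA_5bp against shRNA_2bp), and gave -1.41 (shRNA_2bp against Empty_Vector) and -1.34 (shRNA_2bp against shRNA) at the smallest p that the exact permutation test can give. The cause of these shifts was not tested.

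With each library left out in turn, miR-26a-5p ranged from -0.055 to 0.083 (shRNA_5bp), -0.019 to 0.11 (shRNA_2bp; called without Empty_Vector library 1, adjusted p = 0.0479) and -0.0031 to 0.13 (shRNA) against Empty_Vector. It ranged from -0.028 to 0.020 (shRNA_2bp against shRNA), -0.17 to -0.0026 (shRNA_5bp against shRNA) and -0.14 to 0.014 (shRNA_5bp against shRNA_2bp). miR-26b-5p ranged from 0.19 to 0.36 (shRNA_5bp), 0.34 to 0.48 (shRNA_2bp) and 0.35 to 0.48 (shRNA) against Empty_Vector, and from -0.020 to 0.043 (shRNA_2bp against shRNA), -0.26 to -0.043 (shRNA_5bp against shRNA) and -0.25 to -0.075 (shRNA_5bp against shRNA_2bp). miR-26a-2-3p ranged from 0.52 to 0.80 (shRNA_2bp against Empty_Vector) and -0.22 to 0.15 (shRNA_5bp against shRNA), and, never called, from 0.061 to 0.31 (shRNA_5bp against Empty_Vector), 0.10 to 0.34 (shRNA against Empty_Vector), 0.37 to 0.55 (shRNA_2bp against shRNA) and -0.64 to -0.32 (shRNA_5bp against shRNA_2bp). The replicate block changed no call of a member: miR-26b-5p was at 0.31 (shRNA_5bp), 0.42 (shRNA_2bp) and 0.39 (shRNA) against Empty_Vector with it. Depth limits the opposite arms, read at most 46 times in a library.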
